A study of Mus musculus with 144 samples.

Results

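Livers of mice kept on reverse-phase feeding were compared between genotypes at zeitgeber time (ZT, hours after lights on) 1. The comparison rests on 6 of the 144 libraries of the series: all 3 knockout and all 3 control libraries of that feeding schedule and time, chosen by their labels and by no measured value. All 13814 genes that passed a filter on low counts were tested, of 24421 gene symbols in the table. The mice were male C57BL/6J on normal chow. Controls were labelled wild type and the knockouts were labelled as lacking both REV-ERBα and REV-ERBβ, a deletion the series places in adult hepatocytes. Reverse-phase feeding is the usual name for giving mice their food in the phase in which they normally rest. The columns of the table name controls GFP and knockouts CRE. What these names stand for beyond control and knockout is not stated in the labels. Anything else that they mark differs together with the genotype, and the 2 cannot be told apart. Which exons were deleted is not stated in the labels, nor whether every library came from a separate animal. The p-values then measure a spread between libraries, which may be technical. That spread was pooled over all 48 reverse-phase libraries as 16 groups and was not taken from the 6 alone. For ad libitum effects and differences between schedules it was pooled over all 96 liver libraries. The series asks, from its title, how the hepatocyte clock and feeding act together on liver cell types. For comparison, the other 7 times of the same schedule (42 libraries) and the ad libitum libraries of ZT 1 and ZT 13 (6 each, with the same genotypes, sex, strain and chow) were used.

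Nr1d1 and Nr1d2 encode REV-ERBα and REV-ERBβ, nuclear receptors that bind heme and repress transcription with the NCoR-HDAC3 corepressor complex. They sit on ROR response elements, where the activating ROR receptors also bind, and in this way hold down Arntl (encoding BMAL1), Npas2 and Nfil3 for part of each day. BMAL1 with CLOCK or NPAS2 in turn drives the Per, Cry and Nr1d genes through E-boxes, closing the loop. In liver the REV-ERBs are also known as regulators of lipid and bile acid metabolism, and the timing of meals is known to shift the phase of the liver clock.

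The promoters of 2 genes that rose and 2 that fell are shown, because they hold the letters of the ROR response element and of the CCAAT box that the counts below refer to. Each window runs from 250 bases before to 50 bases after a RefSeq transcription start on GRCm38.p6, is written 5′ to 3′ in the direction of the gene, and has capitals for TAGGTCA, on either strand, in Arntl and Nfil3 and for CCAAT, on either strand, in Idi1 and Cyp51. The Arntl and Nfil3 windows also hold CCAAT, on the opposite strand, left in lower case there. The Arntl window is chr7:113207261-113207560 on the plus strand, the Nfil3 window chr13:52980990-52981289 on the minus strand, the Idi1 window chr13:8885356-8885655 on the plus strand and the Cyp51 window chr5:4104648-4104947 on the minus strand.
Arntl: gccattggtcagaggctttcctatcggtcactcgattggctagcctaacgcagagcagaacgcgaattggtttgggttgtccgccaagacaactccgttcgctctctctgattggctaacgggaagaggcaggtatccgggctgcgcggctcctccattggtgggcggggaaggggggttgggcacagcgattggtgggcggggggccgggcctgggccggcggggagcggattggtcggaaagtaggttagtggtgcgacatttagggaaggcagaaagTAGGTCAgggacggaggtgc
Nfil3: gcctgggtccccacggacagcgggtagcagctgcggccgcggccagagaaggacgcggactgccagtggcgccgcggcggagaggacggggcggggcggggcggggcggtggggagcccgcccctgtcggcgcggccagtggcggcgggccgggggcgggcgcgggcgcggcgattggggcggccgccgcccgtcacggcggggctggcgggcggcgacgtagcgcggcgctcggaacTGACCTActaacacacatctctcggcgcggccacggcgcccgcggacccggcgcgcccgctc
Idi1: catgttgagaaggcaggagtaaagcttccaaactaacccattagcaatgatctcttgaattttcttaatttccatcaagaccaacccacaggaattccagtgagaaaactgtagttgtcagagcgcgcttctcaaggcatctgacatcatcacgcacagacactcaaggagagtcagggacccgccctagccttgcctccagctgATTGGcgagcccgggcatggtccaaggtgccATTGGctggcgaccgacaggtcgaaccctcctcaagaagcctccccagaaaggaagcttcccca
Cyp51: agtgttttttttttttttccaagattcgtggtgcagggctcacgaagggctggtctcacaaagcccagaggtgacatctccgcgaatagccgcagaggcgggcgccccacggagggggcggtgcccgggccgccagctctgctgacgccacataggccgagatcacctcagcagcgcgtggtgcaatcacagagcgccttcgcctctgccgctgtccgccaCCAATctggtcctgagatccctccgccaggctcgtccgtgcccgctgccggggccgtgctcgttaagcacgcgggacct

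The 6 libraries held 13118379 to 15496726 counts, with 15225 to 15482 genes above 0. Values below are TMM-scaled CPM (normalised CPM, counts relative to library size), and a fold change is the knockout minus control difference on the log2 scale with its SE. The first principal component carried 41.3% of the variance and separated the genotypes, with controls at -34.2 to -24.4 and knockouts at 23.2 to 36.2. The share of the 45S ribosomal transcript Rn45s was 0.531 to 0.744% in controls and 0.333 to 0.382% in knockouts. The correlation across genes of log2 CPM with log2 transcript length was -0.0212 to 0.0019 in controls and -0.0681 to -0.0277 in knockouts. Neither measure overlapped between the genotypes, and the part of either in the results was not tested.

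A gene was called where its Benjamini-Hochberg adjusted p from edgeR's quasi-likelihood test was under 0.05. By this rule 744 of 13814 genes (5.39%) were called, of which 327 were higher in knockouts (2.37%) and 417 lower (3.02%). This share of 5.39% is the background for every count of called genes in a list below. At least 2-fold changes made up 147 of the rises and 131 of the falls, and 218 called genes changed under 1.5-fold. The count of falls depended on single libraries: it was 290 without knockout replicate 1, 172 without knockout replicate 3, 202 without knockout replicate 2, 214 without control replicate 1, 263 without control replicate 2 and 266 without control replicate 3. The 3 control and 3 knockout values did not overlap in 3963 genes (28.7%), which is the background for every statement below that 2 groups of values did not overlap.

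The targeted genes were read first. Nr1d1 (mm9 chr11:98629246-98636691) stood at 16.9, 28.4 and 30.6 CPM in controls and at 61.4, 98.0 and 112.8 in knockouts. The knockout libraries were all above the controls, by 1.84 ± 0.30 (log2, SE, n = 3 per group, edgeR adjusted p = 6.3e-05). Nr1d2 (mm9 chr14:19036570-19071620) stood at 70.5, 70.4 and 73.8 CPM in controls and 66.1, 69.1 and 68.2 in knockouts. Its knockout values were all slightly under the controls, and the difference of -0.08 ± 0.14 did not pass (edgeR adjusted p = 0.823). Counts over a whole transcript do not show whether the deleted exons are missing, so neither gene checks the labels. In bulk liver, a change in the share of a cell type and a change in its RNA per cell cannot be told apart.

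The genes that the REV-ERBs are known to repress in the clock were far above control. Arntl (mm9 chr7:120350979-120457640) stood at 3.14, 2.77 and 2.64 CPM in controls and at 27.9, 29.0 and 31.8 in knockouts. Its rise was 10.4-fold, 3.37 ± 0.27 on the log2 scale (edgeR adjusted p = 2.0e-11). Npas2 (mm9 chr1:39251117-39420085), whose protein can take the place of CLOCK as BMAL1's partner, was at 0.27, 0.63 and 0.53 CPM in controls and 14.6, 12.96 and 17.8 in knockouts. Its control libraries were all under 1 CPM, and it rose by 4.96 ± 0.32 (edgeR adjusted p = 2.4e-14). Nfil3 (mm9 chr13:53062578-53076408), a repressor at D-boxes, was at 8.25, 12.3 and 11.9 CPM in controls and 46.5, 60.8 and 65.2 in knockouts, a rise of 2.41 ± 0.21 (edgeR adjusted p = 7.1e-11). Cry1, a repressor of BMAL1 and CLOCK, was at 16.4, 17.4 and 13.4 CPM in controls and 49.4, 51.7 and 59.5 in knockouts, a rise of 1.77 ± 0.22 (edgeR adjusted p = 3.6e-07). No value of these 4 genes overlapped between the genotypes.

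Clock genes that are driven by BMAL1 did not move together. Per2 was at 77.8, 90.4 and 68.0 CPM in controls and 37.8, 42.2 and 37.5 in knockouts, with no overlap. It was called lower at -1.01 ± 0.29 (edgeR adjusted p = 0.0293), but leaving out any of 5 of the 6 libraries, all but control replicate 3, ended the call, with adjusted p of 0.075 to 0.124. Dbp, a transcription factor at D-boxes, had 87.5, 92.2 and 101.8 CPM in controls and 102.3, 116 and 123 in knockouts, at 0.28 ± 0.41 (edgeR adjusted p = 0.784). Per3 (-1.11 ± 0.36, edgeR adjusted p = 0.064), Tef (-0.50 ± 0.18, 0.112) and Bhlhe40 (-0.67 ± 0.23, 0.0811) had lower means in knockouts without passing in this fit, and each passed in others. Per3 was called by DESeq2 (adjusted p = 0.0284), with the replicate number as a block (edgeR adjusted p = 0.0094) and in fits of the 6 ZT 1 libraries alone, without and with the block (0.0172 and 0.0483). Tef was called in both 6-library fits (edgeR adjusted p = 0.0109 and 0.0196). Bhlhe40 was called with the block over all libraries (edgeR adjusted p = 0.0122) and over the 6 (0.0056), without control replicate 3 (0.0231) and without knockout replicate 1 (0.0452). Clock, Per1, Cry2, Rora, Hlf, Bhlhe41 and Ciart also did not pass, with log2 differences between -0.59 and 0.64, although the 6-library fit with the block called Per1 and Ciart lower (edgeR adjusted p = 0.0241 and 0.0392). Of the 19 clock genes, 5 were called higher and 2 lower, with a median log2 fold change of -0.13, beside 0.000769 over all tested genes. The list held 1 called fall without control replicate 1, control replicate 2, knockout replicate 2 or knockout replicate 3, and 3 without control replicate 3. It held 3 under DESeq2, 4 with the block, 4 in the fit of the 6 libraries alone and 7 in that fit with the block.

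**Figure D1:**
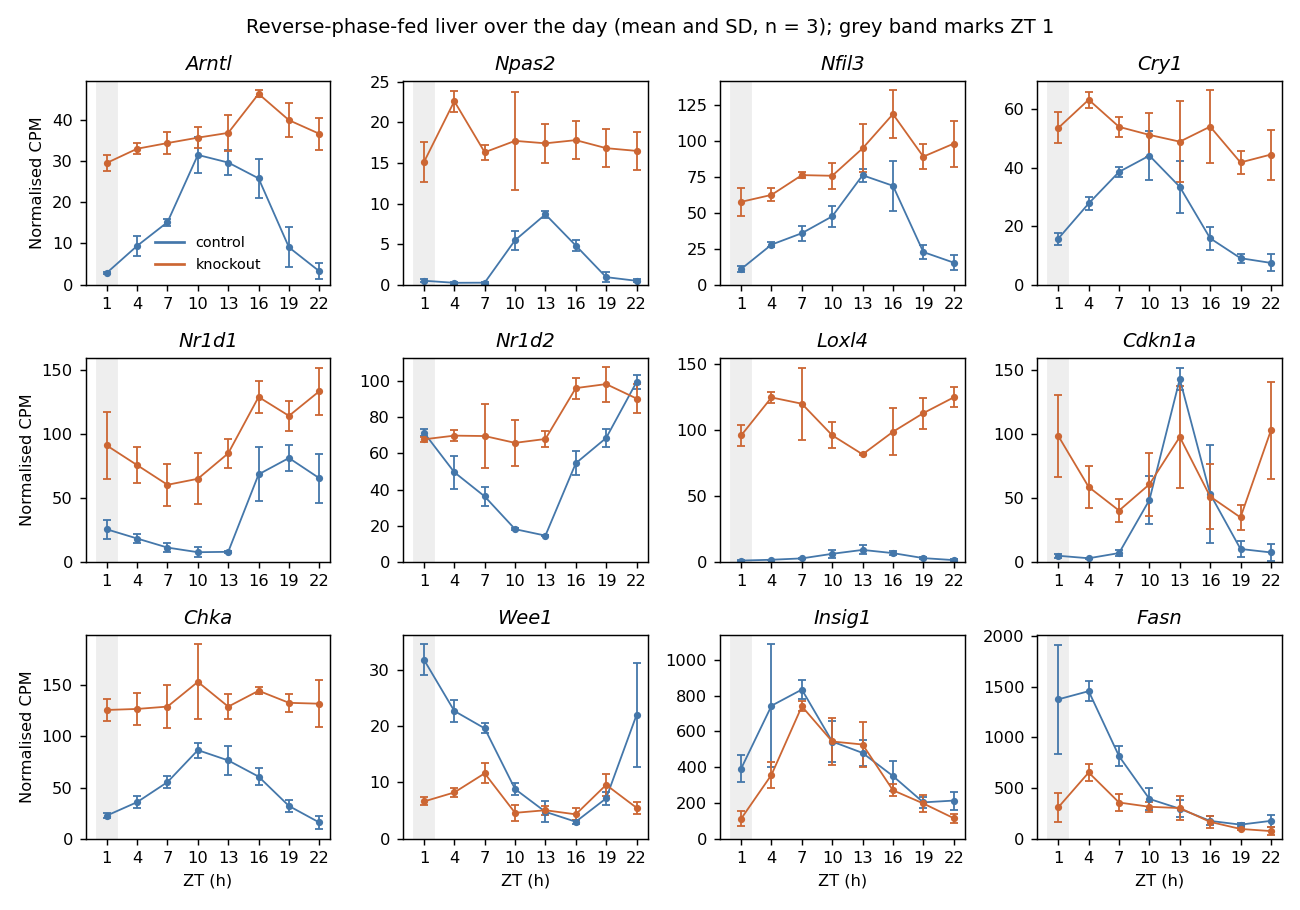
Normalised CPM (vertical axis, from 0) of 12 genes against ZT in hours (horizontal axis) in control and knockout livers under reverse-phase feeding, as mean and SD of 3 libraries, with ZT 1 in the grey band. At ZT 1 control Arntl averaged 2.85 CPM, its lowest of the 8 times, while control Wee1 averaged 31.8 CPM, its highest.

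Of 22 genes listed as outputs of the clock and of the REV-ERBs, 9 were called higher and 2 lower, with a median of 0.82. This list, like every other list here, was drawn up with earlier results of these data known. The count and direction of a list are therefore not independent evidence. The largest rise of the list was in Loxl4 (mm9 chr19:42666769-42687296), a lysyl oxidase-like enzyme of the extracellular matrix. It stood at 0.82, 0.94 and 0.79 CPM in controls and at 97.9, 87.1 and 102.4 in knockouts. The groups were thus 112-fold apart, at 6.80 ± 0.32 (edgeR adjusted p = 5.7e-18). Cdkn1a (mm9 chr17:29230714-29237667), the cell cycle inhibitor p21, stood at 4.36, 6.23 and 3.36 CPM in controls and at 136, 81.2 and 78.6 in knockouts, a rise of 4.40 ± 0.60 (edgeR adjusted p = 4.1e-06). Ndrg1, a stress-responsive gene, stood at 4.70, 7.80 and 5.27 CPM in controls and at 87.2, 117 and 153 in knockouts, a rise of 4.32 ± 0.28 (edgeR adjusted p = 2.7e-14). No values overlapped in these 3 genes.

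Clpx, the ATPase subunit of a mitochondrial protease, also rose: 90.0, 95.5 and 103.9 CPM in controls against 500.3, 461 and 480.1 in knockouts, or 2.32 ± 0.15 (edgeR adjusted p = 2.4e-14). Insig2, which retains the SREBP activator SCAP in the endoplasmic reticulum, rose by 1.47 ± 0.21 from 109, 129 and 113 CPM to 381, 289.6 and 301 CPM (edgeR adjusted p = 4.2e-06). Car14, Lgalsl, Mad2l2 and Lpl were the other called rises of the list, at 1.94, 1.69, 1.33 and 3.09. Wee1, a kinase that delays mitosis and a known target of BMAL1 and CLOCK, stood at 32.9, 28.7 and 33.9 CPM in controls and at 7.37, 5.96 and 6.54 in knockouts. It was the larger of the list's falls, at -2.26 ± 0.25 (edgeR adjusted p = 2.2e-08). Nampt, the rate-limiting enzyme of NAD salvage, went from 126, 133 and 140.1 CPM to 53.1, 51.7 and 58.3, a fall of 1.29 ± 0.13 (edgeR adjusted p = 5.0e-09). Elovl3 (18.1, 18.1 and 51.5 CPM against 106, 50.9 and 22.3) overlapped between the groups and did not pass (edgeR adjusted p = 0.563).

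Outside the clock lists, the largest rises among genes whose log2 CPM averaged at least 1, without overlap of the groups, were in Cyp2a4, Slc13a2, 1500017E21Rik, Hectd2 and Chic1. Cyp2a4, a cytochrome P450 that hydroxylates steroids and is typically higher in female liver, stood at 18.5, 22.01 and 9.88 CPM in controls and at 124, 1115 and 602 in knockouts. Its mean difference was 5.19 ± 0.95 (edgeR adjusted p = 4.4e-04), with knockout replicate 1 far under the other two. Cyp2a4 is nearly identical to Cyp2a5, and reads may have been split between them; Cyp2a5 itself went from 2306, 2182 and 1200.0 CPM to 4660.0, 5895 and 4805 (1.43 ± 0.26, edgeR adjusted p = 3.1e-04). Slc13a2, a carrier of dicarboxylates and of citrate, rose from 0.68, 1.32 and 1.32 CPM to 12.96, 17.5 and 19.8 (3.91 ± 0.45, edgeR adjusted p = 9.5e-08). An antisense gene, Slc13a2os, overlaps it and strand was not stated, so their reads cannot be told apart. Hectd2, a HECT-domain ubiquitin ligase, and the non-coding 1500017E21Rik overlap at their 3′ ends on opposite strands (mm9 chr19:36629129-36695625 and chr19:36693908-36763969). Hectd2 went from 22.6, 9.05 and 12.0 CPM to 208, 158 and 155 (3.58 ± 0.34, edgeR adjusted p = 1.3e-09), and 1500017E21Rik from 27.95, 9.49 and 13.2 CPM to 247, 188 and 195 (3.64 ± 0.35, edgeR adjusted p = 2.1e-09). Chic1 rose by 3.23 ± 0.40 from 3.27, 1.89 and 1.12 CPM to 15.6, 19.6 and 23.8 (edgeR adjusted p = 3.5e-07).

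Among the largest falls by the same rule were those of Acot3, Col27a1, Susd4, Cyp4a12a, Slc22a7, Cml5, Maff, Gprin3 and Wee1. Col27a1 (mm9 chr4:62876446-62996024), a fibrillar collagen chain, stood at 68.3, 47.0 and 59.4 CPM in controls and 3.28, 5.84 and 5.34 in knockouts. It was 12.0-fold lower, at -3.58 ± 0.50 (edgeR adjusted p = 5.5e-06), with each knockout value under 6 CPM. Slc22a7, an organic anion transporter of the hepatocyte membrane, went from 11.2, 8.99 and 12.9 CPM to 1.71, 1.58 and 1.40 (-2.81 ± 0.62, edgeR adjusted p = 0.0034). Maff, a small MAF transcription factor, went from 8.73, 6.67 and 5.53 CPM to 1.94, 0.99 and 0.67 (-2.56 ± 0.50, edgeR adjusted p = 6.9e-04). Some of the other falls were less stable. Susd4 (-3.21 ± 0.83) had 3.84 CPM in control replicate 2 against 17.0 and 17.5 in the other controls, and its call was lost without control replicate 1, control replicate 3, knockout replicate 2 or knockout replicate 3, with edgeR adjusted p of 0.0609, 0.062, 0.092 and 0.105. Cyp4a12a, a male-predominant fatty acid hydroxylase with near-identical copies, had 93.1, 83.9 and 301 CPM in controls and 31.7, 17.4 and 14.8 in knockouts (-2.91 ± 0.83), and lost its call without control replicate 3 (edgeR adjusted p = 0.216) or any single knockout library (0.0602 to 0.153). Gprin3 lost its call without control replicate 1, knockout replicate 2 or knockout replicate 3 (edgeR adjusted p = 0.0781, 0.11 and 0.122), and Cml5 without knockout replicate 3 (0.0513).

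**Figure D2:**
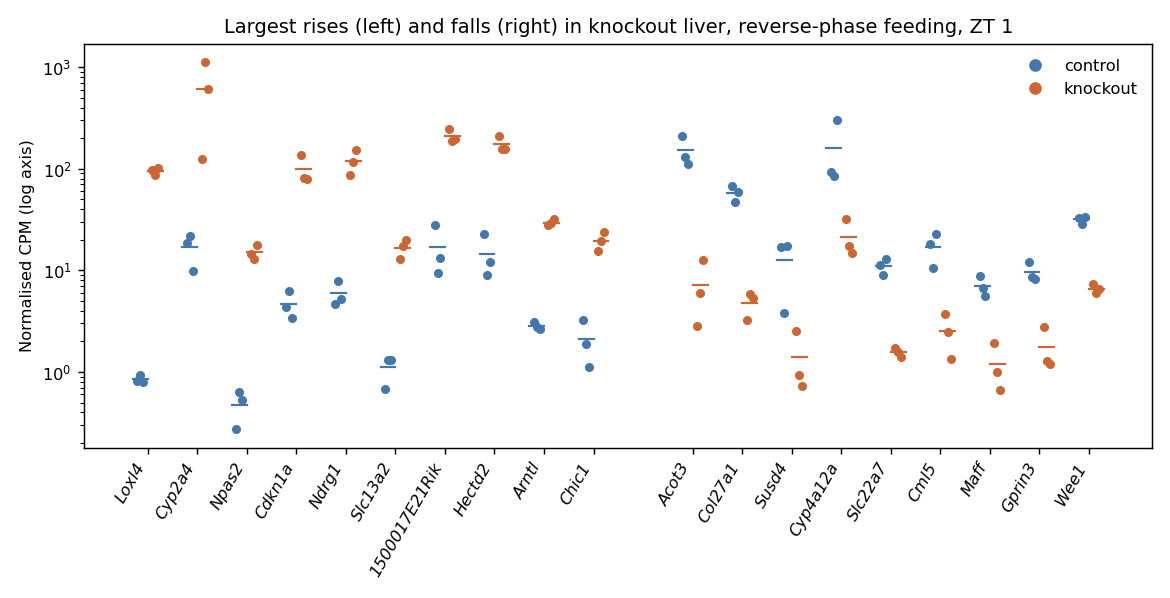
Normalised CPM (log axis) of the 10 largest called rises (left) and 9 of the 10 largest called falls (right) in each of the 3 control and 3 knockout libraries at ZT 1, with a line at each group's mean. Loxl4 spans 0.79 to 0.94 CPM in controls and 87.1 to 102.4 CPM in knockouts, and no gene shown has overlapping groups, which the rule for choosing them required.

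The genes of cholesterol synthesis and uptake were lower nearly throughout. Of 25 listed genes 19 were called lower and none higher, with a median of -1.40, beside 3.02% of all genes called lower. The 3 knockout values lay under the 3 control values in 23 of the 25. Insig1, the SREBP-induced partner of Insig2, went from 309, 405 and 461 CPM to 160.1, 92.4 and 83.3 (-1.81 ± 0.28, edgeR adjusted p = 2.5e-05), though it was not called in the 6-library fit with the block (0.0846). Insig1 and Insig2 thus changed in opposite directions.

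In the synthesis pathway, Idi1, the isomerase that makes dimethylallyl diphosphate, stood at 40.2, 35.5 and 46.6 CPM in controls and at 18.0, 5.14 and 6.14 in knockouts (-2.08 ± 0.56, edgeR adjusted p = 0.0215). Fdps, which makes farnesyl diphosphate, went from 144.5, 87.7 and 124 CPM to 54.1, 17.0 and 19.2 (-1.99 ± 0.45, edgeR adjusted p = 0.0042), and Msmo1, a sterol demethylating enzyme, from 219.6, 139 and 202 CPM to 95.8, 27.3 and 27.5 (-1.90 ± 0.47, edgeR adjusted p = 0.0103). In all 3 genes knockout replicate 1 lay between the controls and the other knockouts, and in 24 of the 25 listed genes it was the highest knockout. Not called were Srebf2, the transcription factor of the pathway (-0.66 ± 0.22, edgeR adjusted p = 0.064), Stard4 (-1.47, 0.0715), Acat2 (-0.55, 0.133), Sc5d (-0.67, 0.245), Hmgcs1 (-0.72, 0.423) and Ebp (0.05, 0.913). Hmgcs1 was represented by a transcript with only 1.05 to 2.18 CPM in these libraries.

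The number of cholesterol genes called lower rested on which knockout libraries were present. It was 9 without knockout replicate 2, 8 without knockout replicate 3 and 19 without knockout replicate 1, and 13, 18 and 13 without control replicates 1, 2 and 3. Idi1 lost its call without control replicate 1, control replicate 3, knockout replicate 2 or knockout replicate 3 (edgeR adjusted p = 0.0528, 0.0696, 0.137 and 0.136), Msmo1 without knockout replicate 2 or 3 (0.0929 and 0.1), and Fdps likewise (0.0539 and 0.0531).

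**Figure D3:**
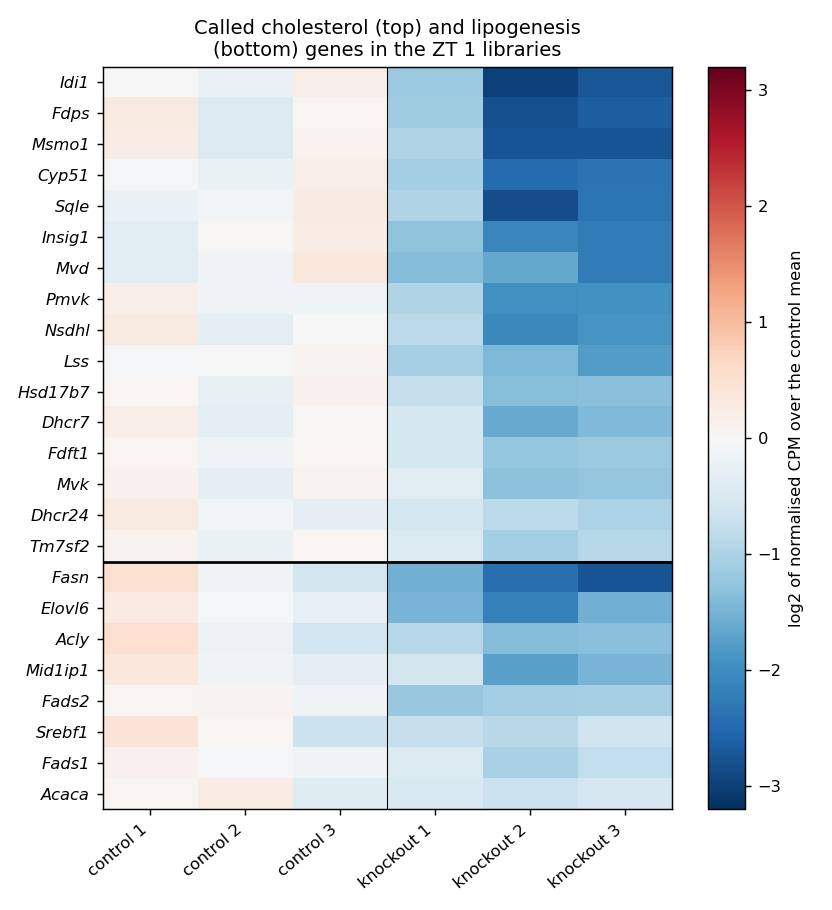
Heat map of the log2 ratio of each library's normalised CPM to the mean of the controls (colour scale), with the 6 libraries at ZT 1 as columns and, as rows, 16 of the 19 called genes of the cholesterol list above the line and the 8 called genes of the lipogenesis list below it. Knockout replicate 1 is paler than the other 2 knockouts for most cholesterol genes: Idi1 is at 18.0 CPM there and at 5.14 and 6.14 CPM in the others.

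Fatty acid synthesis was lower in part. Of 24 listed genes, 8 (33.3%) were called lower and none higher, with a median of -0.54. Fasn (mm9 chr11:120667272-120685861), the fatty acid synthase, stood at 1970.0, 1244 and 916 CPM in controls and 471, 259 and 202 in knockouts, a fall of 2.15 ± 0.34 (edgeR adjusted p = 5.4e-05). Elovl6, which elongates palmitate, went from 253, 203 and 176 CPM to 74.9, 46.9 and 72.0 (-1.71 ± 0.28, edgeR adjusted p = 9.0e-05). Acly, which makes cytosolic acetyl-CoA, went from 505, 305 and 227 CPM to 183, 132 and 138 (-1.20 ± 0.24, edgeR adjusted p = 9.3e-04), and was not called without control replicate 1 (edgeR adjusted p = 0.0504), the highest library. Acaca, Srebf1, Fads1, Fads2 and Mid1ip1 were the other called genes, at -0.57 to -1.19. Scd1, a stearoyl-CoA desaturase, had 7512, 1650.0 and 1702 CPM in controls and 4114, 1569 and 1909 in knockouts; the first library of each genotype stood apart and the groups overlapped (edgeR adjusted p = 0.607). Without single libraries the list's called falls numbered 3 (control replicate 1), 5 (control replicate 2), 8 (control replicate 3), 6 (knockout replicate 1), 3 (knockout replicate 2) and 4 (knockout replicate 3).

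Among 30 genes of fatty acid oxidation and targets of PPARα, 8 (26.7%) were called lower and none higher, with a median of -0.23. Ppara itself, the fasting-activated receptor, went from 499, 329 and 338 CPM to 156, 192 and 177 (-1.15 ± 0.22, edgeR adjusted p = 4.9e-04). The largest differences were in acyl-CoA thioesterases, which free fatty acids from CoA. Acot3 stood at 212, 132 and 111 CPM in controls and at 2.83, 5.96 and 12.6 in knockouts (-4.41 ± 0.93, edgeR adjusted p = 0.0024), Acot4 at 103, 82.1 and 78.5 against 15.5, 16.7 and 22.7 (-2.26 ± 0.36, edgeR adjusted p = 6.0e-05), and Acot1 at 78.5, 103 and 141 against 29.1, 19.5 and 25.6 (-2.12 ± 0.44, edgeR adjusted p = 0.0020). These genes lie side by side on chromosome 12 and resemble each other, so reads may have been shared among them. Acot3 was not called in the fit of the 6 libraries alone with the block (edgeR adjusted p = 0.137). Cpt1a, the carnitine transferase that admits fatty acids to mitochondria, went from 695, 499 and 593 CPM to 336, 321 and 351 (-0.83 ± 0.15, edgeR adjusted p = 2.2e-04). Acaa1b and Pex11a, both peroxisomal, were also called, at -1.38 and -1.01. The mitochondrial enzymes Cpt2, Acadm, Acadl, Acadvl, Hadha, Hadhb and Acaa2 ranged from -0.12 to 0.23 and did not pass.

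Genes of lipid handling moved in both directions, 4 higher and 3 lower of 27 tested (25.9% called), with a median of 0.13. Lpl, the lipoprotein lipase, stood at 27.95, 18.6 and 16.1 CPM in controls and at 125, 229.5 and 179.7 in knockouts, a rise of 3.09 ± 0.55 (edgeR adjusted p = 2.6e-04). Chka (mm9 chr19:3851773-3894369), the first enzyme of phosphatidylcholine synthesis, stood at 21.0, 25.7 and 21.2 CPM in controls and at 116, 137 and 124 in knockouts, a rise of 2.47 ± 0.20 (edgeR adjusted p = 2.0e-11). Plin5, a coat protein of lipid droplets, rose by 1.33 and Lipc, the hepatic lipase, by 0.89. Lipg, the endothelial lipase, went from 49.2, 45.5 and 34.8 CPM to 10.3, 16.6 and 10.6 (-1.79 ± 0.35, edgeR adjusted p = 7.2e-04), and Cidec and Mttp fell by 1.06 and 0.39. The 3 called falls became 1 without control replicate 1, control replicate 3, knockout replicate 2 or knockout replicate 3, and 2 without either other library. Cidea was under the filter.

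Beside 5.39% of all tested genes, 1 of 22 genes (4.55%) of glucose and glycogen metabolism was called. It was Ppp1r3c, which targets protein phosphatase 1 to glycogen, at 105, 38.5 and 35.6 CPM in controls and 154, 179.6 and 176 in knockouts (1.51 ± 0.32, edgeR adjusted p = 0.0019); control replicate 1 stood apart from the other controls. Ppp1r3c was not called in the fits of the 6 libraries alone, without or with the block (edgeR adjusted p = 0.162 and 0.214), which called 2 higher and 1 lower, and 4 higher and 3 lower, of the list. A second gene was called without control replicate 2. Pck1, a gluconeogenic enzyme, had 1244, 762 and 965 CPM in controls and 1662, 1250.0 and 1186 in knockouts, and its groups overlapped. The list's median was -0.09.

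Of 22 genes of bile acid synthesis and transport, 2 were called higher and 2 lower (18.2% called). Abcg5 and Abcg8, the subunits of the sterol exporter, stood at 128, 116 and 115 CPM and at 127, 128 and 116 CPM in controls, and at 55.3, 79.8 and 72.2 CPM and at 57.7, 76.0 and 75.9 CPM in knockouts. They were lower by -0.79 ± 0.23 and -0.82 ± 0.23 (edgeR adjusted p = 0.0307 and 0.0298), and neither call held when any of the 6 libraries was left out (edgeR adjusted p = 0.0508 to 0.18). Fgfr4, the hepatocyte receptor for the gut hormone FGF15, went from 32.04, 34.3 and 30.4 CPM to 44.5, 46.0 and 47.0 (0.51 ± 0.12, edgeR adjusted p = 0.0067), and Hsd3b7 rose by 0.48; 1 of these rises remained called without control replicate 2, knockout replicate 2 or knockout replicate 3. Cyp7a1, which sets the rate of bile acid synthesis, had 188, 268 and 347 CPM in controls and 73.3, 185 and 199 in knockouts, which overlapped (edgeR adjusted p = 0.46). Cyp7b1 ranged from 31.8 to 299 CPM among the controls alone.

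Drug metabolism genes counted 5 higher and 2 lower of 31 (22.6% called), with a median of -0.09. Besides Cyp2a4 and Cyp2a5 the rises were in Cyp2c55 (14.7, 4.53 and 5.27 CPM against 34.0, 29.2 and 22.6, 1.81 ± 0.38, edgeR adjusted p = 0.0019), Gstm3 (1.56) and Gstm1 (0.77). Gsta1, a glutathione transferase, went from 14.6, 3.46 and 4.08 CPM to 0.30, 0.35 and 0.67 (-4.04 ± 0.91, edgeR adjusted p = 0.0043), lost its call without control replicate 1 (edgeR adjusted p = 0.0739), and shares sequence with other transferases of its class. Cyp3a13 was the other fall, at -0.78. In the fit of the 6 libraries alone the balance turned round, with 3 called higher and 8 lower, and with the block it was 5 and 9. These fits also called more falls over all genes, with 460 higher and 763 lower, and 441 and 764 with the block. The turn is thus not particular to this list. Cyp2c55 was not called in the former (edgeR adjusted p = 0.106). The 5 rises became 3 without control replicate 2, control replicate 3 or knockout replicate 1, and the 2 falls became 1 without control replicate 2 or knockout replicate 2. In the list of growth hormone targets and male-biased genes 2 of 27 were called, Cyp2a4 and Cyp4a12a, given above. That is 7.41%, beside 5.39% of all tested genes.

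The remaining lists held few calls. The called share was 12% of the acute phase list and 11.5% of the interferon list, beside 5.39% of all tested genes. Of 25 acute phase genes Itih3, an inter-alpha-trypsin inhibitor chain, rose from 526, 528 and 501 CPM to 981, 928 and 827 (0.81 ± 0.23, edgeR adjusted p = 0.0298), and Cp, the copper carrier ceruloplasmin, from 1145, 1091 and 992 CPM to 1880.0, 1652 and 1644 (0.68 ± 0.12, edgeR adjusted p = 1.9e-04). Saa4, a constitutive serum amyloid A, fell by 1.12 ± 0.23 (edgeR adjusted p = 0.0011). The Itih3 call was kept only without knockout replicate 3 (edgeR adjusted p = 0.0476) and reached an adjusted p of 0.0702 to 0.0978 without each other library. Of 26 interferon response genes 3 were called higher, 23 had an estimate above 0 and the median was 0.46. Rsad2 went from 5.18, 2.39 and 3.56 CPM to 9.01, 16 and 10.3 (1.67 ± 0.42, edgeR adjusted p = 0.0102), Cmpk2, its neighbour, from 2.32, 1.89 and 2.11 to 4.92, 5.02 and 4.87 (1.23 ± 0.28, edgeR adjusted p = 0.0043), and Ifit3 from 7.50, 4.90 and 4.02 to 7.67, 10.6 and 10.7 (0.82 ± 0.25, edgeR adjusted p = 0.0386). The 3 calls became 1 without control replicate 2 or knockout replicate 2 and 2 without control replicate 3 or knockout replicate 3; Rsad2 was lost without control replicate 2 or knockout replicate 2 (edgeR adjusted p = 0.0777 and 0.0862), and Ifit3 without those or the third library of either genotype (0.134 to 0.214).

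Of 18 heat shock genes Hspa1b was called lower (40.4, 101 and 43.5 CPM against 23.9, 28.1 and 9.48, -1.58 ± 0.42, edgeR adjusted p = 0.0189), but not without control replicate 2 or knockout replicate 3 (edgeR adjusted p = 0.214 and 0.157); without control replicate 1 the list had 2 calls. Of 23 immediate early genes Gadd45a was called lower (23.0, 11.0 and 15.5 CPM against 5.14, 2.57 and 3.07, -2.21 ± 0.37, edgeR adjusted p = 1.0e-04), with a second fall called without control replicate 3 and a rise without control replicate 2. The called shares of the heat shock and immediate early lists were 5.56% and 4.35%, close to the 5.39% of all tested genes. Of 20 cell cycle genes, Cdkn1a and Wee1, both described above, were called (10%). Of 19 tested extracellular matrix genes, Loxl4 and Col27a1 were called (10.5%), and Timp1 was under the filter. None of 22 genes of endoplasmic reticulum stress, 50 of oxidative phosphorylation and 47 cytosolic ribosomal protein genes was called. All 50 oxidative phosphorylation genes had an estimate above 0 (0.06 to 0.54, median 0.28), and in 40 of them the groups did not overlap. At an unadjusted p under 0.05, 2525 of all genes (18.3%) passed, and the 50 were not counted at that threshold. DESeq2 called 1 of the 50, beside 906 of 13814 genes. A fit of the 6 libraries alone called 9, beside 1223 of 12514. The list's median effect was also above 0 ad libitum, at 0.269 at ZT 1 and 0.187 at ZT 13. The 50 are short, abundant transcripts, and the correlation of expression with length given above moved the same way. The part of that correlation was not tested.

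Markers of the liver's cell types were read as sums of CPM. The 14 hepatocyte markers summed to 126600 to 151500 CPM in controls and 125000 to 141300 in knockouts, and none was at 0. Endothelial (15 markers) and Kupffer cell (12 markers) sums overlapped, at 226.5 to 359 against 282 to 341 CPM and at 331 to 411 against 308 to 553 CPM. The 10 stellate cell markers summed to 193.5 to 290.5 CPM in controls and 314 to 377 in knockouts, without overlap. All 10 had an estimate above 0, and Colec11 was called (20.3, 29.6 and 21.7 CPM against 36.6, 35.0 and 41.7, 0.66 ± 0.20, edgeR adjusted p = 0.0376). It was not called without control replicate 1, control replicate 3, or any 1 of the knockout libraries (edgeR adjusted p = 0.0577 to 0.166). The 7 cholangiocyte markers summed to 41.1 to 47.9 CPM in controls and 60.8 to 140.1 in knockouts, again without overlap. Sox9, the transcription factor of the biliary lineage, stood at 6.41, 3.84 and 4.35 CPM in controls and at 26.5, 14.7 and 15.6 in knockouts (1.96 ± 0.33, edgeR adjusted p = 9.8e-05). The most abundant of these markers, Spp1, was at 27.3, 21.0 and 20.1 CPM against 28.7, 23.6 and 84.6, so that the highest sum came from knockout replicate 3. Krt19, Krt7 and Epcam were under 5 CPM in every library and were not called, and Cftr had no count in 3 of the 6 libraries. Neutrophil and monocyte markers summed to at most 5.27 CPM with Ly6g at 0, lymphocyte markers to at most 3.78 CPM, and erythroid markers overlapped at 114 to 197 against 127 to 193 CPM. No hepatocyte, endothelial, Kupffer cell, neutrophil, monocyte, lymphocyte or erythroid marker was called in the fit of all libraries. The fits of the 6 libraries alone called 4 hepatocyte markers higher, both without and with the block, and with the block also 1 endothelial marker. Of the Loxl4, Col27a1 and Lpl changes, the part of stellate or biliary cells was not tested.

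**Figure D4:**
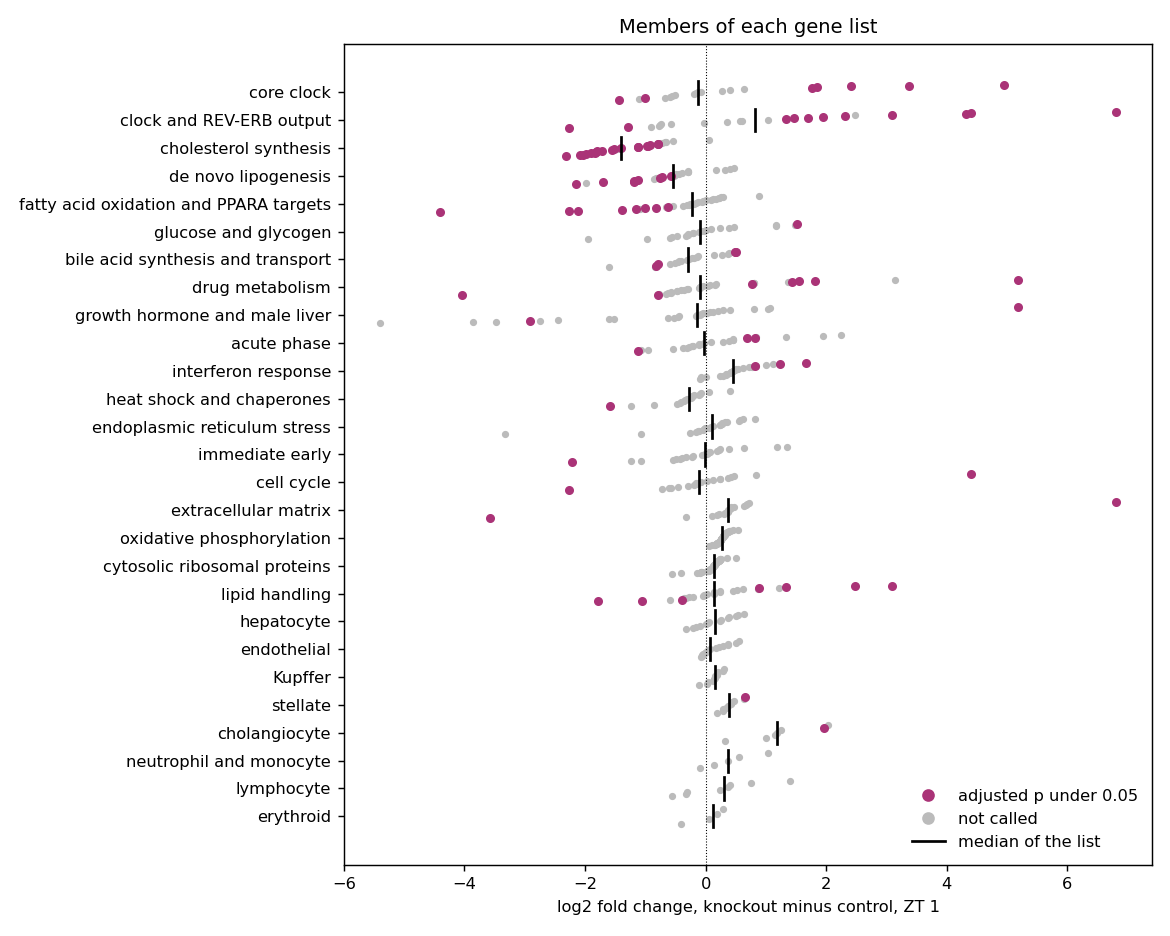
Log2 fold change, knockout minus control, at ZT 1 (horizontal axis) of the tested members of each gene list (rows), with called genes in purple, other genes in grey and a line at each list's median. The cholesterol list has 24 of its 25 genes below 0, and the oxidative phosphorylation list has all 50 genes above 0 with none called.

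Beside the other times of the day, ZT 1 had the most calls: under reverse-phase feeding the knockout effect called 216 genes at ZT 13 and 601 at ZT 22, the lowest and highest counts of the other 7 times, against 744 at ZT 1. The difference itself was tested as the ZT 1 effect minus the mean effect at the other 7 times, which share no library with it. It was called for 62 of 13814 genes (0.449%), 30 with a positive and 32 with a negative difference, and 1184 genes (8.57%) had an unadjusted p under 0.05. This count was 22 without control replicate 1, 37 without control replicate 3, 21 without knockout replicate 2 and 24 without knockout replicate 3. The largest positive differences among genes called at ZT 1 were in Cdkn1a (2.62 ± 0.60), Arntl (1.94 ± 0.28), Loxl4 (1.79 ± 0.34), Ndrg1 (1.51 ± 0.27) and Lrfn3 (1.47 ± 0.24), with edgeR adjusted p of 0.0323, 1.2e-04, 0.0061, 0.0027 and 5.0e-04. Control Arntl averaged 2.85 CPM at ZT 1 and 31.5 CPM at ZT 10, whereas knockout Arntl averaged 29.5 and 35.7 CPM. The genotype effect on Arntl was accordingly 3.37 at ZT 1 and 0.18 at ZT 10. Control Cdkn1a likewise averaged 4.65 CPM at ZT 1 and 143 CPM at ZT 13, against 98.4 and 97.7 CPM in knockouts, and its effect was -0.55 at ZT 13. In these 2 genes the control mean differed more between the times named than the knockout mean did. Knockout Cdkn1a was not flat over the day, with means from 34.7 CPM at ZT 19 to 103 CPM at ZT 22. Its control means ran from 2.69 CPM at ZT 4 to 143 CPM at ZT 13.

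Lrfn3, which encodes a neuronal adhesion molecule, stood at 3.204, 4.40 and 3.23 CPM in controls and at 14.3, 15.5 and 13.8 in knockouts at ZT 1 (2.01 ± 0.23, edgeR adjusted p = 5.5e-08). From ZT 4 to ZT 19 its effect was 0.03 to 0.72, and at ZT 22 it was 1.48. Among the largest negative differences were those of Wee1 (-1.68 ± 0.26), Fasn (-1.51 ± 0.36), the unnamed 4931408D14Rik (-1.51 ± 0.30) and Insig1 (-1.47 ± 0.29), with edgeR adjusted p of 2.9e-04, 0.0381, 0.0069 and 0.0088. Fasn averaged 1377 CPM in controls and 311 in knockouts at ZT 1, and 297 and 303 CPM at ZT 13. Knockout Fasn also varied over the day, from 654 CPM at ZT 4 to 76.1 CPM at ZT 22. The Fasn effect was called lower at ZT 4, ZT 7 and ZT 22 too, at -1.155, -1.187 and -1.22. It was not called at ZT 10, ZT 13, ZT 16 or ZT 19. Nr1d2 also differed, by -1.04 ± 0.15 (edgeR adjusted p = 8.5e-05): at ZT 10 and ZT 13 its effect was 1.87 and 2.23, against -0.08 at ZT 1. Of the cholesterol list 3 of 25 genes were called in the difference from the other times, and of the lipogenesis list 4 of 24, beside 0.449% of all genes.

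The same clock time under the other schedule gave a different set of calls. Ad libitum, the knockout effect at ZT 1 was called for 107 of 13538 genes (0.79%), 63 higher and 44 lower. Of 13420 genes tested in both fits, 43 were called in both, which is 5.795% of the 742 reverse-phase calls and 40.2% of the 107 ad libitum calls; 42 of them had the same direction. The ad libitum libraries were shallower (4568593 to 10366800 counts over that table, against 13118379 to 26192949), and the part of depth in the counts was not tested. The difference between the effects was tested in a joint fit of all 96 liver libraries and called for 180 of 13538 genes (1.33%), 112 positive and 68 negative. It was 115 without control replicate 1 and 116 without knockout replicate 3. A constant offset between the schedules' tables cancels in it, other differences between the tables do not, and these cannot be told apart from feeding.

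Among genes called at ZT 1 whose log2 CPM averaged at least 1, the largest positive differences were in Loxl4, Npas2, Cdkn1a, Ndrg1 and Arntl. Arntl and Npas2 are in the clock list and the others in the output list. Both lists were drawn up with earlier results of these data known. Those memberships are therefore not independent evidence. Arntl had 42.3, 48.9 and 47.0 CPM in ad libitum controls at ZT 1 and 52.0, 45.3 and 49.8 in knockouts, which overlapped, against 2.85 and 29.5 CPM on average under reverse-phase feeding. The difference of the effects was 3.30 ± 0.29 (edgeR adjusted p = 5.4e-14). Npas2 had 19.6, 17.4 and 13.4 CPM in ad libitum controls and 22.6, 13.6 and 20.2 in knockouts, a difference of 4.81 ± 0.42 (edgeR adjusted p = 1.9e-14). Loxl4 had 20.8, 51.9 and 35.4 CPM against 101, 88.1 and 94.4 (difference 5.43 ± 0.41, edgeR adjusted p = 1.0e-16), Cdkn1a 49.8, 55.5 and 24.8 CPM against 88.6, 50.8 and 53.9 (difference 3.86 ± 0.72, edgeR adjusted p = 3.8e-04), and Ndrg1 a difference of 3.52 ± 0.39 (edgeR adjusted p = 4.8e-10). For Arntl and Npas2 the knockout means of the 2 schedules lay closer together than the control means did. The reverse-phase means were normalised over the 48 reverse-phase libraries and the ad libitum means over all 96 liver libraries. This comparison of means was not tested.

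Nr1d2 and the sterol genes carried negative differences. Nr1d2 had 15.7, 7.70 and 16.5 CPM in ad libitum controls and 53.7, 52.1 and 47.0 in knockouts, an effect of 1.94 against -0.08 under reverse-phase feeding (difference -2.0 ± 0.25, edgeR adjusted p = 2.2e-08). Among the largest negative differences of genes called at ZT 1 were those of Idi1 (-2.63 ± 0.72), Wee1 (-2.62 ± 0.38), Msmo1 (-2.40 ± 0.65) and Fdps (-2.39 ± 0.65), with edgeR adjusted p of 0.0412, 1.2e-06, 0.0365 and 0.0401. Of the cholesterol list, 11 of 25 genes were called in the difference, beside 1.33% of all genes. The list's median effect was 0.33 ad libitum at ZT 1 against -1.40 under reverse-phase feeding. Some effects were called under both schedules and gave no called difference: Lpl (2.40 ad libitum, edgeR adjusted p = 0.0013) had a difference of 0.71 ± 0.61 (0.771), and Slc22a7 (-2.51, 0.015) one of -0.28 ± 0.84 (0.963). A difference that misses the threshold does not show that 2 effects are equal.

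**Figure D5:**
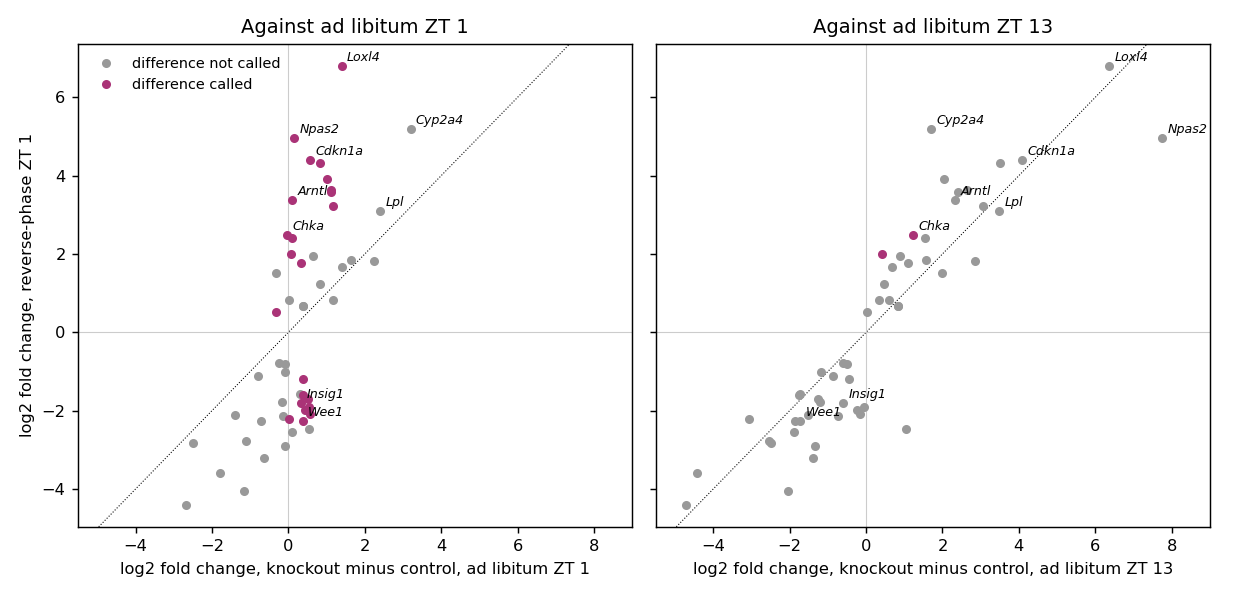
Log2 fold change, knockout minus control, of the named genes called at reverse-phase ZT 1 (vertical axis) against the same at ad libitum ZT 1 (left) and ZT 13 (right); the dotted line marks equal effects and purple points have a called difference. Arntl lies at 3.37 on the vertical axis and at 0.09 on the left and 2.33 on the right horizontal axis; the Npas2 position on the right rests on controls with 0 counts in 2 of 3 libraries.

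At the ad libitum time opposite on the clock, ZT 13, more genes were called and more calls were shared. There 933 of 13538 genes (6.89%) were called, 471 higher and 462 lower. Of 13420 genes tested in both fits 341 were called in both, all in the same direction, which is 46.0% of the 742 reverse-phase calls and 36.6% of the 931 ad libitum calls. The shared part of the ad libitum list was thus no larger than at ZT 1 (40.2% of 107), and the lists differ greatly in length. Arntl had 8.19, 5.98 and 6.85 CPM in these controls and 35.9, 33.8 and 35.4 in knockouts, and Loxl4 1.02, 0.96 and 1.01 against 77.2, 75.5 and 94.7. The difference of the effects was called for 4 of 13538 genes (0.0295%), and 1182 genes (8.73%) had an unadjusted p under 0.05; DESeq2 called 18. The count was 0 without control replicate 1, knockout replicate 2 or knockout replicate 3, 2 without control replicate 3, 10 without control replicate 2 and 11 without knockout replicate 1. Chka and Lrfn3 were 2 of the 4, with differences of 1.28 and 1.61 (edgeR adjusted p = 0.0443 for both), and Fam117a and Taf2, with differences of 1.97 and -1.17 at the same adjusted p, were the others, though neither was called at reverse-phase ZT 1 itself (edgeR adjusted p = 0.802 and 0.0824) and both were chosen after their values were seen. Chka had 28.3, 39.9 and 31.4 CPM in ad libitum controls at ZT 13 and 82.1, 75.1 and 75.8 in knockouts. None of the 25 cholesterol genes was called in this difference, although their median effect was -0.13 ad libitum at ZT 13 and -1.40 under reverse-phase feeding at ZT 1.

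Promoter windows were searched for 5 motifs on both strands, in 13292 windows of 10458 tested genes; the genes called at least 2-fold higher had 158 windows for 109 of 147 genes and those at least 2-fold lower 118 windows for 93 of 131. The ROR response element TAGGTCA was found in 3.8% of windows of the rises (6), 2.54% of the falls (3) and 2.13% of tested genes, beside 2.61% of all 32851 windows. The 6 belonged to Arntl, Nfil3, Leo1, Micalcl, St6gal1 and Tjp3, and the 3 to Dhcr7 and Rnf152 only. Its G variant TGGGTCA was found in 3.8, 5.93 and 3.4%, and the E-box CACGTG in 8.23, 11.9 and 9.64%. The 12 of 19 called cholesterol genes with a window had 15 windows. The CCAAT box, where NF-Y binds beside SREBP at sterol genes, was in 12 of them (80%), against 37.5% of windows of tested genes, 48.7% of the rises and 39.8% of the falls, and the windows of Idi1 and Cyp51 shown above are examples. TAGGTCA was in 2 of the 15 (13.3%), TGGGTCA in 1 (6.67%) and CACGTG in 3 (20%). Both windows with TAGGTCA belonged to the same gene, Dhcr7. The sterol regulatory element TCACNCCAC was in 0 of the 15 and in 1.21% of tested windows, which says only that these letters are not in these windows. In the Arntl window TAGGTCA starts 30 bases after the transcription start, and in that of Nfil3 it starts 12 bases before, on the opposite strand. These matches are counts of letters without a test and do not show binding.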

How the data were processed

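Liver RNA was isolated by Trizol followed by column clean-up, and TruSeq libraries were prepared, per the labels' protocols. STAR, HOMER and the mm9 build are named in the submitters' processing notes, without versions; strand use is not stated there. The deposited tables hold the authors' expected counts per transcript: 31.9% of reverse-phase values were not whole but multiples of 0.5. They were rounded, and 1 transcript was kept per symbol, the one with the largest mean over both liver tables.

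edgeR 4.0.16 in R 4.3.3 (TMM, filterByExpr, robust quasi-likelihood fit) was run on all 48 reverse-phase libraries as 16 groups, and on all 96 liver libraries for differences between schedules. Genes with a Benjamini-Hochberg adjusted p under 0.05 were called; the SE is the absolute log2 fold change over the root of F. The steps were tested on simulated data. Named genes were the clock genes, the 10 largest rises and 10 largest falls without overlap at a mean log2 CPM of at least 1, in every list the 3 called genes (or fewer) that changed most, and the 5 largest called differences in each direction among genes also called at ZT 1. The members and lists were chosen with earlier results of these data known. Alternatives included DESeq2 1.42.0, other filters, other transcripts and leaving out each library. No 2 libraries of the same genotype at reverse-phase ZT 1 held identical values. These replicate pairs differed by 12.48 to 41.53 chi-square per degree of freedom, and no other pairs were compared in this way. The values of some genes, which stay in the counts and list medians, are not reported here.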

Additional observations from a re-analysis of the deposited data

Results flagged for a closer look

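The knockout effect at reverse-phase ZT 1 was set against the mean effect at the other 7 reverse-phase times. By edgeR's test of the difference itself, 62 of 13814 genes (0.449%) were called. The named genes reported here include 16 of these. Some genes were named for such differences, here and below, so that choice partly fixed the numbers. On the log2 scale the positive differences were 2.62 for Cdkn1a, 1.94 for Arntl, 1.79 for Loxl4, 1.51 for Ndrg1, 1.47 for Lrfn3, 1.17 for Nfil3 and 0.90 for Chka. The negative ones were -1.68 for Wee1, -1.67 for Per3, -1.51 for Fasn, -1.51 for 4931408D14Rik, -1.47 for Insig1, -1.25 for Elovl6, -1.05 for Acly, -1.04 for Nr1d2 and -0.85 for Tef.

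The effect at reverse-phase ZT 1 differed from that at ad libitum ZT 1 in 26 of the named genes, beside 180 of 13538 genes (1.33%) over all. Positive differences were 5.43 for Loxl4, 4.81 for Npas2, 3.86 for Cdkn1a, 3.52 for Ndrg1, 3.30 for Arntl, 2.91 for Slc13a2, 2.54 for 1500017E21Rik, 2.53 for Chka, 2.49 for Hectd2, 2.34 for Nfil3, 2.08 for Chic1, 1.95 for Lrfn3, 1.45 for Cry1 and 0.84 for Fgfr4. Negative differences were -2.63 for Idi1, -2.62 for Wee1, -2.40 for Msmo1, -2.39 for Fdps, -2.20 for Gadd45a, -2.19 for Elovl6, -2.15 for Per3, -2.12 for Insig1, -2.0 for Nr1d2, -1.97 for 4931408D14Rik, -1.56 for Acly and -1.07 for Tef. Against ad libitum ZT 13 the difference was called for 4 of 13538 genes (0.0295%). Among the named genes it was 1.28 for Chka and 1.61 for Lrfn3. Per3, Tef and Nr1d2 were not themselves called at reverse-phase ZT 1.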

How the results depend on the processing

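The 327 rises became 174 when a fold of at least 1.2 was required and 229 to 280 when each ZT 1 library was left out in turn; the 417 falls became 162 with the fold minimum, 763 when the 6 ZT 1 libraries were fitted alone, 764 with the replicate block added to that fit, and 172 to 290 without single libraries. The 6-library fit shared 636 of its 1223 calls with the 744. The 62 genes that differed from the other times became 116 under DESeq2's Wald test and 21 to 48 without single libraries, and the 180 that differed from ad libitum ZT 1 became 115 to 211. The 4 that differed from ad libitum ZT 13 became 0 with DESeq2 size factors, 0 with no filter on low counts, 18 with DESeq2's Wald test, 2 with the replicate block and 0 to 11 without single libraries. Same-numbered libraries deviated from their group means with correlations of 0.0671, 0.0767 and -0.174, so the numbers are not shown to pair them; the replicate block gave 296 rises, 412 falls, 62 and 176 genes. No named gene reversed direction under any of these alternatives, and 26 of the 56 called lost their call under at least 1 of them, of which 17 did so on leaving out a ZT 1 library. In the fit of the 6 libraries alone the lost calls and their edgeR adjusted p included Fasn (0.0626), Cyp2a4 (0.0624), Susd4 (0.0847), Cyp4a12a (0.0953), Idi1 (0.0879), Acly (0.0968), Cyp2c55 (0.106), Fdps (0.119), Ppp1r3c (0.162), Msmo1 (0.172), Hspa1b (0.212) and Ifit3 (0.0549); with the block Acot3 (0.137), Insig1 (0.0846) and Rsad2 (0.0534) were lost too. Calls were gained as well: Per3, Tef, Bhlhe40, Per1 and Ciart were each called lower under at least 1 alternative. The 6-library fit also called 5 bile acid genes lower in place of 2, 5 lipid handling genes lower in place of 3 and 5 acute phase genes higher in place of 2. Leaving out 3 libraries of other groups that stand apart was chosen after seeing the data. Where the cause of a change is not the smaller number of libraries, it was not tested. Depth limits genes under about 1 CPM.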
